A study of Mus musculus with 6 samples.

Results

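Acyl-CoA synthetases join a fatty acid to coenzyme A at the cost of ATP, the step that commits the acid to oxidation, to storage in triglyceride and phospholipid, or to elongation. The ACSL enzymes take long chains, the mitochondrial ACSM enzymes take medium chains, and the ACSS enzymes take acetate and other short acids. Hepatocytes express many of them, and the cytosolic acetate enzyme ACSS2 is itself a known substrate of the SIRT1 deacetylase. The members described here were 10 genes of these families, Acsl1, Acsl3, Acsl4, Acsl5, Acsl6, Acsm1, Acsm3, Acsm5, Acss1 and Acss2, found by the gene name that the array files give to each probe. That name matched 18 of 41174 probes other than control spots, and 9 of the 10 genes had at least 1 such probe. Acsm5 had none under its own name and is given separately from a probe that the files list under an older name.

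The arrays measured liver RNA of SIRT1 LKO mice, in which Sirt1 had been deleted in the liver, and of mice that the labels call Lox control without naming the allele. Both groups were male, 10 weeks old, kept on chow with free access to food in a background that was 95% C57BL/6, and killed at 4 pm. Each group had 3 pools of RNA from 2 animals per pool, each on its own 1-colour Agilent array. The labels name neither the deleted exons nor the promoter that drives Cre, and no animal can be read on its own. P-values therefore measure the spread between pools. The purpose given for the series was to study processes that depend on PPAR-alpha, a fatty acid receptor, in fed animals.

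Intensities are given as log2 after subtraction of the array's own 75th percentile, and every difference is SIRT1 LKO minus Lox control. The test was limma with Benjamini-Hochberg adjustment over 23571 probes, those well above background in every pool of the SIRT1 LKO group, the Lox control group or both, with a threshold of 0.05. The 75th percentile lay between 1007 and 1289 intensity units on the SIRT1 LKO arrays and between 1005 and 1056 on the Lox control arrays, and the share of probes well above background ranged from 52.1% to 66.2%. With 3 arrays a group, precision is limited by their number. The 3 Lox control pools lay on 1 slide, SIRT1 LKO pools 1 and 2 on a second and SIRT1 LKO pool 3 on another, so that slide and genotype cannot be told apart. SIRT1 LKO pool 3 also stood apart because its column in the deposited value table did not match its scanner file. The table was 0.719 times the scanner intensity at the median, and 0.853% of probes agreed within 1%, against 99.8% on each of the other arrays. Results that rest on that pool are therefore given from both sources and without it. The brighter Sirt1 probe read -0.07, 0.09 and 0.16 in SIRT1 LKO livers, against 0.29, 0.37 and 0.24 in Lox control livers. Its groups did not overlap, but the difference of -0.24 (SE 0.10) did not pass (limma adjusted p = 0.242), and since the deleted exons are not given, whether the probe lies in the deleted part is unknown. The second tested Sirt1 probe read -0.80, -0.85 and -0.48 in SIRT1 LKO livers, against -0.76, -0.64 and -0.67 in Lox control livers, with overlapping groups and a difference of -0.02 (SE 0.12, adjusted p = 0.941). That overlap rests on SIRT1 LKO pool 3 as scanned. The value table puts the pool at -0.998, and every SIRT1 LKO pool is then below every Lox control pool. The difference at this probe was -0.19 (limma adjusted p = 0.237) with the value table and -0.13 (adjusted p = 0.346) without that pool. Of the hepatocyte markers fixed for the check of tissue, 7 genes were tested, and their summed linear level was 1199 to 1534 in SIRT1 LKO livers and 1206 to 1428 in Lox control livers. SIRT1 LKO pool 3 is the one at 1199, and the value table puts it at 1530.

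Arrays read RNA through 60-base probes, and related enzymes could share probe sequence, so some member probes are shown first. Those of Acss1 and Acss2 and probe 2 of Acsl4 are not shown. Capitals mark the longest run shared with a probe of another member. Positions are those of the array files on mm7, and the sequences are those of the scanner files, 5′ to 3′. Probe 1 of Acsl1 lies at chr8:45312289-45312348 on the plus strand and shares 7 bases with the Acsl5 probe. The Acsl5 probe lies within chr19:55208487-55209075 on the plus strand, a span of 589 bases for 60 bases of probe, and shares 9 bases with probe 3 of Acsl6. The Acsm1 probe lies within chr7:115582941-115584513 on the plus strand, a span of 1573 bases, and shares 8 bases with probe 2 of Acsl1.
Acsl1 probe 1: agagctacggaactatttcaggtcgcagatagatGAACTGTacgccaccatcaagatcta
Acsl5: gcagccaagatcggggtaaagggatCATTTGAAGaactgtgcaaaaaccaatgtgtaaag
Acsm1: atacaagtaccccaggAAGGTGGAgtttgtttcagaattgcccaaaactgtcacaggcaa

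Acsl3 and Acsl4 are close relatives among the long-chain enzymes, and a 30-base stretch of each is given around their longest shared run. The Acsl3 stretch holds bases 5 to 34 of the probe at chr1:78923503-78923562 on the plus strand, and the Acsl4 stretch holds bases 17 to 46 of probe 1 at chrX:136984972-136985031 on the minus strand. They have 8 bases in a row in common, in capitals, and further matches on both sides that the capitals do not mark.
Acsl3: gcggATGTATGGaaggaaataattagtttt
Acsl4 probe 1: gcgaATGTATGGgggcaaataaaatgcggc

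Over all 137 pairs of probes from different members, the longest shared run was 9 of 60 bases. Only exact, unbroken runs were counted, so likeness with mismatches was not measured. Probe GC content ranged from 35.0% to 51.7%. An exon or UTR is not assigned to the probes, because no genome of that build was used here.

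No acyl-CoA synthetase probe passed the threshold in either direction. Of the 18 member probes, 14 were tested, and 12 were well above background on all 6 arrays. The other 4, which were 3 probes of Acsl6 and probe 2 of Acss2, were not well above background on any array. Among the 14 tested, 9 were higher and 5 lower in SIRT1 LKO livers, with a median difference of 0.03, beside a median of 0.02 over all 23571 probes tested, of which 52.7% were higher. The differences ran from -0.31 to 0.42, with limma adjusted p from 0.132 to 0.986. The same fit called 15 of all probes tested, which is 0.0636% (0.00424% higher and 0.0594% lower), so that 0 called among 14 is near the background. At an unadjusted p under 0.05, 2 of the 14 member probes passed, against 21.3% of all probes. The 95% intervals of 12 of the 14 lay within a 2-fold change either way. The intervals of Acss2 probes 3 and 4 reached past it.

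**Figure D1:**
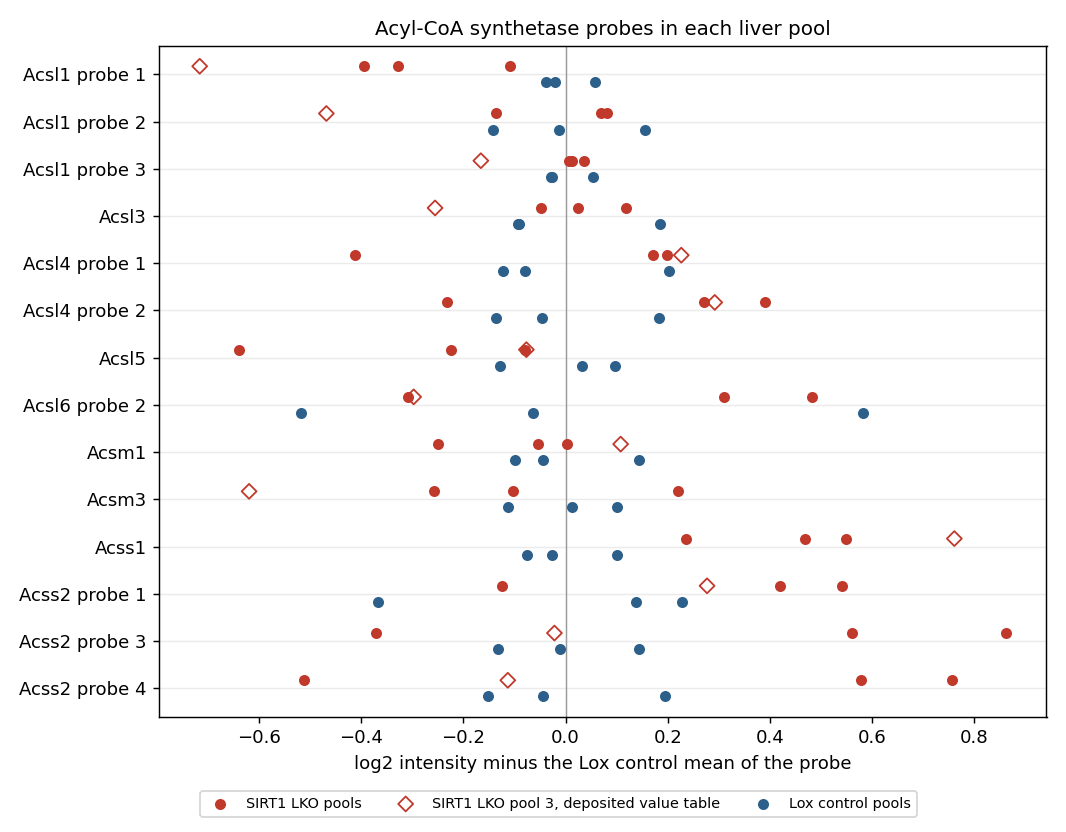
Each of the 14 tested member probes is a row, and the horizontal axis is the log2 intensity of each pool minus the Lox control mean of the same probe. Red points are SIRT1 LKO pools, blue points are Lox control pools, and the open diamond is SIRT1 LKO pool 3 as the deposited value table gives it; in the scanner files, red and blue are apart in Acsl1 probe 1 and Acss1 and overlap in the other 12.

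Acsl1, the main long-chain synthetase of the liver and a known target of PPAR-alpha, was read by 3 probes, none of which passed. Probe 3 (chr8:45313747-45313806) read 7.36, 7.39 and 7.36 in SIRT1 LKO livers, against 7.33, 7.32 and 7.41 in Lox control livers. Its difference was 0.02 (SE 0.09, limma adjusted p = 0.919), with a 95% interval of -0.19 to 0.22, the narrowest of the members. Probe 2 (chr8:45312597-45312656) read 4.69, 4.48 and 4.70 in SIRT1 LKO livers, against 4.48, 4.61 and 4.77 in Lox control livers. Its difference was 0.00 (SE 0.12, limma adjusted p = 0.986), and the groups overlapped at both of these probes.

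Probe 1 of Acsl1, whose sequence is given above, read 4.44, 4.37 and 4.66 in SIRT1 LKO livers, against 4.75, 4.73 and 4.83 in Lox control livers. All 3 SIRT1 LKO pools were below all 3 Lox control pools, with a difference of -0.28 (SE 0.11) and limma adjusted p = 0.216, which does not pass. With the value table, where SIRT1 LKO pool 3 is at 4.05, the difference was -0.48 (adjusted p = 0.0839), and without that pool it was -0.36 (adjusted p = 0.0680). With the slide as a random block the adjusted p was 0.529. Acsl1 probe 1 was 1 of 2 tested member probes whose groups did not overlap, while 28.9% of all probes tested had groups apart and 14.0% had SIRT1 LKO wholly below. In the value table the groups were apart at 4 member probes (Acsl1 probe 1 below, and Acsl4 probe 2, Acss1 and Acss2 probe 1 above), against 34.1% of all probes.

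The ratio of 2 probes of Acsl1 within an array does not depend on the scaling of that array. Probe 1 minus probe 3 was -2.92, -3.02 and -2.70 in SIRT1 LKO livers, against -2.58, -2.59 and -2.58 in Lox control livers. The means were -2.88 ± 0.16 and -2.58 ± 0.01 (SD, n = 3 each), with every SIRT1 LKO pool below every Lox control pool. The difference was -0.30, and the exact two-sided permutation test gave p = 0.1, the smallest that 3 pools against 3 allow, or 0.25 adjusted over the 5 probe pairs compared. Probe 1 minus probe 2 was likewise below in all 3 SIRT1 LKO pools, by -0.28 (exact permutation p = 0.1, adjusted 0.25). Probe 2 minus probe 3 differed by -0.01, with overlapping groups (exact permutation p = 0.9, adjusted 0.9). With 3 pools against 3 this permutation test cannot reach the threshold, so it does not decide whether any of these differences is real. Probes 2 and 3 hardly differed between the groups. The ratios with probe 1 therefore largely restate the values of probe 1 and are no separate result.

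**Figure D2:**
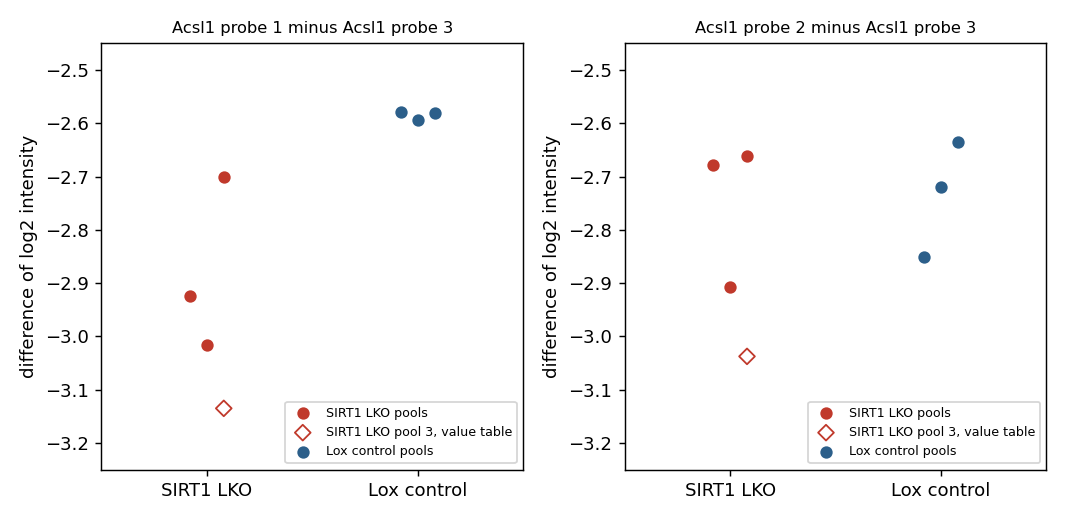
The vertical axes give the difference in log2 intensity between probe 1 and probe 3 of Acsl1 (left) and between probe 2 and probe 3 (right), with SIRT1 LKO pools in red and Lox control pools in blue. For probe 1 minus probe 3 the SIRT1 LKO pools lie at -2.70 and below and the Lox control pools close to -2.58, and the open diamond, SIRT1 LKO pool 3 in the deposited value table, is at -3.13; for probe 2 minus probe 3 the groups overlap.

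Acsl5, a long-chain enzyme of mitochondria and endoplasmic reticulum, had the lowest difference of the tested members. Its probe read 5.34, 5.20 and 4.79 in SIRT1 LKO livers, against 5.30, 5.46 and 5.52 in Lox control livers. SIRT1 LKO pools 2 and 3 were below every Lox control pool and pool 1 was not, and the difference of -0.31 (SE 0.16) did not pass (limma adjusted p = 0.315). The value table puts SIRT1 LKO pool 3 at 5.35, and the difference was then -0.13. Without that pool it was -0.15, so the size of the difference rests on pool 3 as scanned.

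Acsl3, an enzyme of the endoplasmic reticulum and of forming lipid droplets, read 0.44, 0.54 and 0.37 in SIRT1 LKO livers, against 0.33, 0.33 and 0.60 in Lox control livers. The groups overlapped, with a difference of 0.03 (SE 0.12, limma adjusted p = 0.899) and a 95% interval of -0.25 to 0.31.

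Acsl4 prefers arachidonate and other polyunsaturated acids and is known for supplying the phospholipids that are peroxidised in ferroptosis. Its probe 2 (chrX:136982376-136982435, minus strand) read 4.45, 4.33 and 3.83 in SIRT1 LKO livers, against 4.01, 3.92 and 4.24 in Lox control livers. Probe 1 read 1.87, 1.90 and 1.29 in SIRT1 LKO livers, against 1.57, 1.62 and 1.90 in Lox control livers. At both probes SIRT1 LKO pool 3 in the scanner file was the lowest of the 6 pools. The value table gives that pool 4.35 at probe 2, where all 3 SIRT1 LKO pools are then above all 3 Lox control pools. The difference at probe 2 was 0.14 (SE 0.19, limma adjusted p = 0.690) in the scanner files, 0.32 (adjusted p = 0.136) with the value table and 0.33 (adjusted p = 0.152) without the pool. At probe 1 the difference was -0.01 in the scanner files and turned to 0.20 with the value table and 0.18 without the pool.

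Acsl6, known mainly as the enzyme of brain that handles docosahexaenoate, was near background in these livers. Probe 2 (chr11:54317906-54317965) was well above background on all 3 SIRT1 LKO arrays and on 1 of 3 Lox control arrays. It read -3.88, -3.70 and -4.49 in SIRT1 LKO livers, against -3.60, -4.25 and -4.70 in Lox control livers. The groups overlapped, and the difference of 0.16 (SE 0.32) had a limma adjusted p of 0.803.

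The medium-chain enzymes did not pass either. Acsm1 read 6.04, 6.10 and 5.85 in SIRT1 LKO livers, against 6.00, 6.05 and 6.24 in Lox control livers. Acsm3 (chr7:115706790-115706849) read 3.73, 3.57 and 4.05 in SIRT1 LKO livers, against 3.93, 3.72 and 3.84 in Lox control livers. In both genes the groups overlapped, with differences of -0.10 (SE 0.12, limma adjusted p = 0.651) for Acsm1 and -0.05 (SE 0.15, adjusted p = 0.881) for Acsm3. In the value table SIRT1 LKO pool 3 reads 3.21 for Acsm3, which gives a difference of -0.33 (adjusted p = 0.223). A probe that the files call C730027J19Rik, a synonym of Acsm5 in the RefSeq gene table, read 4.30, 4.31 and 4.08 in SIRT1 LKO livers, against 4.17, 4.25 and 4.30 in Lox control livers. It lies at chr7:115465176-115465235, and its difference was -0.01 (SE 0.11, limma adjusted p = 0.970).

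Acss1, the mitochondrial acetyl-CoA synthetase and a known substrate of the mitochondrial deacetylase SIRT3, had the highest difference of the members. Its probe (chr2:150358992-150359051, minus strand) read -2.68, -2.76 and -3.00 in SIRT1 LKO livers, against -3.13, -3.26 and -3.31 in Lox control livers. Every SIRT1 LKO pool was above every Lox control pool, with means of -2.81 ± 0.16 and -3.23 ± 0.09 (SD, n = 3 each). That is 1.34-fold, a difference of 0.42 (SE 0.12) with a 95% interval of 0.14 to 0.70, and limma adjusted p = 0.132 does not pass. Of all probes tested, 14.9% had SIRT1 LKO pools wholly above Lox control pools. The difference was 0.59 (adjusted p = 0.0587) with the value table, which puts pool 3 at -2.47, and 0.51 (adjusted p = 0.0548) without that pool. With the slide as a random block it was 0.40 (adjusted p = 0.424). Sirt3 itself differed by 0.03 (limma adjusted p = 0.885).

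Acss2, the acetyl-CoA synthetase of cytosol and nucleus and a known target of the SREBP factors, was high in SIRT1 LKO pools 1 and 2 and low in pool 3. Probe 4 (chr2:155303248-155303310) read 4.70, 4.52 and 3.43 in SIRT1 LKO livers, against 3.79, 3.90 and 4.13 in Lox control livers. Probe 3 (chr2:155302999-155303058) read 3.61, 3.30 and 2.37 in SIRT1 LKO livers, against 2.61, 2.73 and 2.89 in Lox control livers. At both probes pools 1 and 2 lay above all Lox control pools and pool 3 lay below all of them.

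The differences at Acss2 were 0.27 (SE 0.33, limma adjusted p = 0.664) for probe 4 and 0.35 (SE 0.31, adjusted p = 0.541) for probe 3. The value table raises SIRT1 LKO pool 3 to 3.83 at probe 4 and 2.72 at probe 3, both inside the range of the Lox control pools. Without pool 3 the differences were 0.67 (adjusted p = 0.0573) and 0.71 (adjusted p = 0.0564), neither of which passes, where 2.97% of all probes do. Probe 1 (chr2:155259665-155259724), which the files take from a separate cDNA, was well above background on 3 SIRT1 LKO arrays and 1 Lox control array. It read -4.30, -4.42 and -4.96 in SIRT1 LKO livers, against -4.70, -4.61 and -5.20 in Lox control livers, with overlapping groups and a difference of 0.28 (SE 0.23, limma adjusted p = 0.516).

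**Figure D3:**
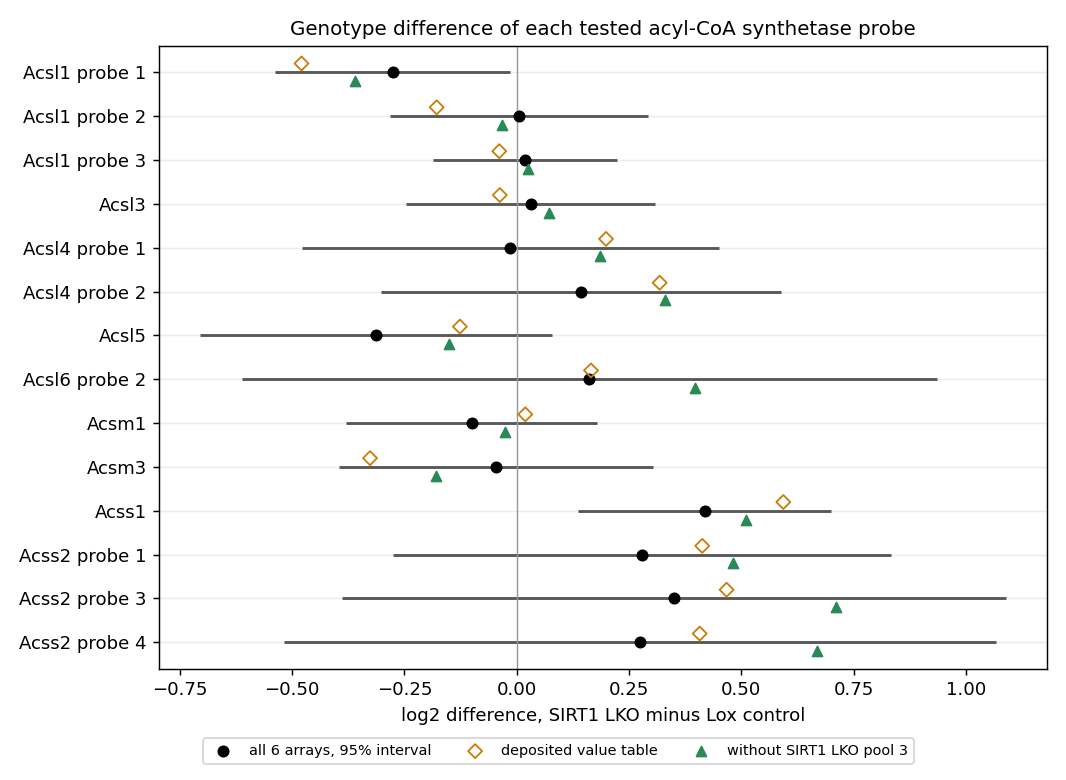
Black points are the log2 difference, SIRT1 LKO minus Lox control, of the 14 tested member probes with all 6 arrays, and bars are limma 95% intervals. Diamonds use the deposited value table for SIRT1 LKO pool 3 and triangles leave that pool out; intervals of Acsl1 probe 1 and Acss1 do not cross 0, and Acss2 probes 3 and 4 move from 0.35 and 0.27 with all arrays to 0.71 and 0.67 without the pool.

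Of 16372 probes compared, those whose pool-to-pool pattern was most like Acss2 probe 4 were both probes of Pmvk, phosphomevalonate kinase of the cholesterol pathway, at a root mean square difference of 0.04 and 0.08 after centring over the 6 arrays. Vasn, Rcan1 and Serpinh1 followed at 0.09, 0.09 and 0.10. The nearer Pmvk probe read 5.50, 5.25 and 4.28 in SIRT1 LKO livers, against 4.53, 4.63 and 4.92 in Lox control livers, and its difference of 0.32 did not pass (limma adjusted p = 0.595). It shows the same order as Acss2, with SIRT1 LKO pools 1 and 2 on top and pool 3 lowest. That order follows from its choice by likeness to Acss2 over these same 6 arrays and is no separate result. The probes most like the flat Acsl1 probe 3 were those of Errfi1, Ramac, Ccdc97, Actr1a and Ttc4, at root mean square differences from 0.01 to 0.02.

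Some genes of fatty acid synthesis, chosen after their values were seen, also read high in SIRT1 LKO pools 1 and 2. Fasn, the fatty acid synthase, read 8.52, 8.26 and 6.46 in SIRT1 LKO livers, against 6.78, 7.38 and 7.61 in Lox control livers. Acacb, an acetyl-CoA carboxylase, read 3.73, 3.56 and 1.19 in SIRT1 LKO livers, against 1.36, 2.25 and 2.01 in Lox control livers. Acly, which makes acetyl-CoA from citrate, read 3.80, 3.23 and 1.90 in SIRT1 LKO livers, against 2.20, 2.52 and 2.37 in Lox control livers.
The brightest probes of Acaca and Scd1, of the same pathway, did not stand out in this way. That of Acaca, the other acetyl-CoA carboxylase, read 1.24, 0.89 and 0.26 in SIRT1 LKO livers, against 0.59, 0.98 and 1.07 in Lox control livers. Its other tested probes differed by 0.42, -0.02 and -0.13, and none passed. The desaturase Scd1 read 7.36, 7.16 and 5.92 in SIRT1 LKO livers, against 6.38, 7.46 and 6.88 in Lox control livers.
For Fasn, Acacb and Acly the value table places SIRT1 LKO pool 3 with pools 1 and 2, at 8.37 for Fasn, 3.59 for Acacb and 3.50 for Acly. Acss2 differs in that the value table leaves pool 3 among the Lox control pools. Aacs, the cytosolic enzyme that activates acetoacetate, read 6.14, 5.84 and 4.88 in SIRT1 LKO livers, against 4.76, 4.91 and 5.36 in Lox control livers, and the value table has pool 3 at 4.99. None of these genes passed with all 6 arrays.

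**Figure D4:**
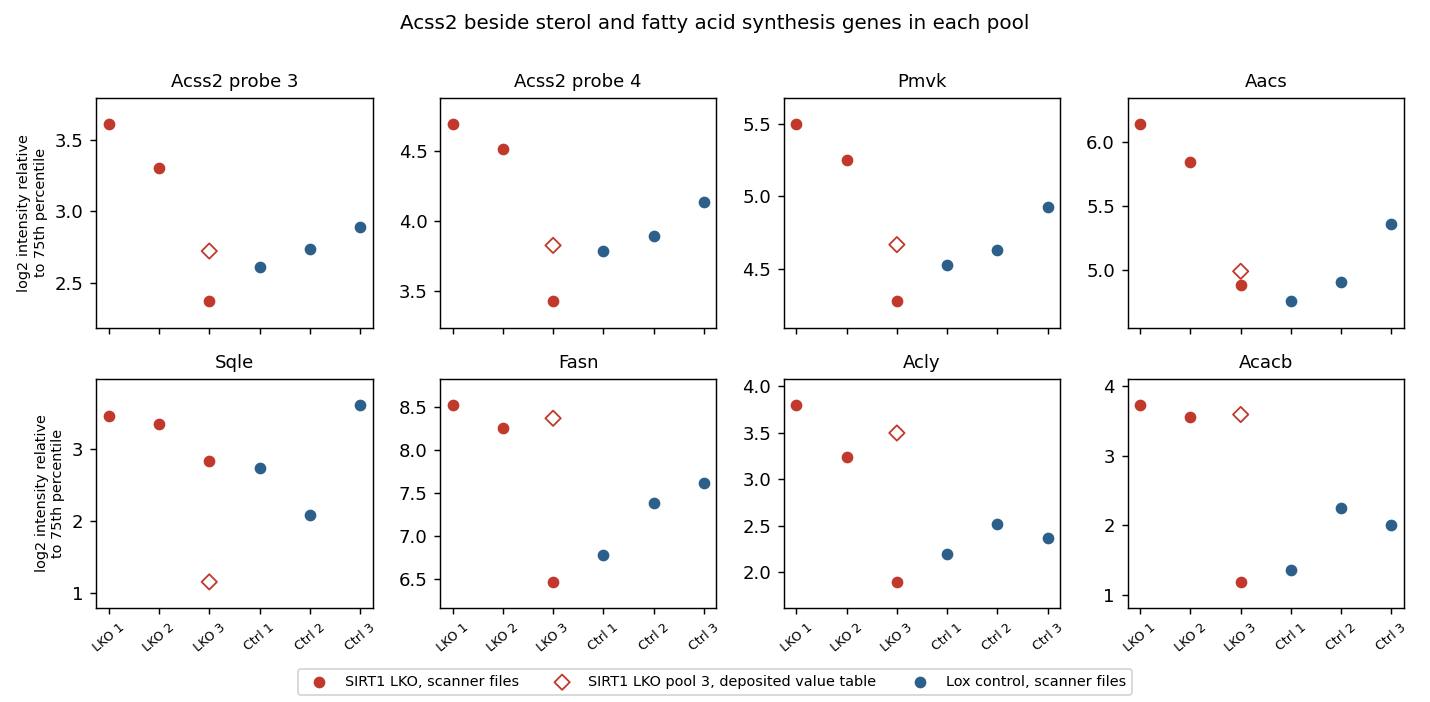
Each panel gives the log2 intensity, relative to the array's 75th percentile, of 1 probe in the SIRT1 LKO pools (red) and the Lox control pools (blue); vertical axes differ between panels. The open diamond is SIRT1 LKO pool 3 in the deposited value table, which lies near the red points of pools 1 and 2 for Fasn, Acly and Acacb and within the range of the blue points for Acss2, Pmvk and Aacs, while Sqle is at 1.16 there, below all Lox control pools.

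The other acyl-CoA synthetases also had no probe past the threshold. Of 14 such genes 13 had a probe, 12 of their 18 probes were tested, and 6 were higher and 6 lower. Acsm2, a medium-chain enzyme, had the smallest p. Its brighter probe read -4.16, -3.74 and -4.74 in SIRT1 LKO livers, against -2.19, -2.48 and -2.43 in Lox control livers. All SIRT1 LKO pools were lower, by 3.59-fold at the mean, a difference of -1.85 (SE 0.25, limma adjusted p = 0.0700). The other tested probe of Acsm2 differed by -1.61 (adjusted p = 0.0787). Without SIRT1 LKO pool 3 the brighter probe passed, at -1.58 (adjusted p = 0.0419), and with the value table it was -1.35 (adjusted p = 0.0554). With normexp background correction it was -0.67 (adjusted p = 0.887), and with the slide as a random block -1.90 (adjusted p = 0.339). Acss3, a mitochondrial short-chain enzyme, differed by 0.74 (adjusted p = 0.135), and Slc27a4, a fatty acid transport protein with synthetase activity, by -0.33 (adjusted p = 0.174). The value table moves SIRT1 LKO pool 3 from -2.80 to -3.59 at Acss3, where the groups then overlap. The difference of Acss3 was 0.48 (adjusted p = 0.338) with the value table and 0.73 (adjusted p = 0.132) without that pool.

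Genes that use or carry acyl-CoA were split in direction. Of 47 probes of 24 genes, 44 were tested, 21 were higher and 23 lower, and none passed, with a median difference of -0.01. Over all their probes the smallest p was that of a second probe of Lpin2, a phosphatidate phosphatase, at -0.65 (limma adjusted p = 0.111). Other tested Lpin2 probes differed by 0.23 and -0.10. The smallest p among the genes' brightest probes belonged to Crot, the peroxisomal carnitine octanoyltransferase, at -0.49 (limma adjusted p = 0.120). Fads2, the delta-6 desaturase, followed at 0.38 (adjusted p = 0.277) and Dgat2, which makes triglyceride, at 0.18 (adjusted p = 0.364). Other Dgat2 probes differed by -0.08 and 0.07. With the value table, where 1.31% of all probes passed, Acacb was higher by 1.75 (adjusted p = 0.0452) and Acly by 1.14 (adjusted p = 0.0484), and that Lpin2 probe was lower, at -0.82 (adjusted p = 0.0429). Without SIRT1 LKO pool 3, Acacb (1.77, adjusted p = 0.0489) and that Lpin2 probe (-0.81, adjusted p = 0.0419) passed.

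Regulators of the family and the sirtuins gave 29 tested probes of 30, for 16 genes, with 13 higher, 16 lower and none past the threshold. Ppara, the receptor that drives Acsl1 in liver, differed by 0.00 (SE 0.13), with overlapping groups. Over all its probes the smallest p belonged to 1 of 3 probes of Hnf4a, a hepatocyte factor, at -0.44 (limma adjusted p = 0.133), and to a probe of Mlxipl, the carbohydrate-response factor, at 0.44 (adjusted p = 0.154). Among the genes' brightest probes it belonged to the coactivator Ppargc1b at -0.47 (limma adjusted p = 0.186), to Srebf2, the sterol-sensing SREBP, at 0.31 (adjusted p = 0.191), and to the coactivator Ppargc1a at -0.75 (adjusted p = 0.217). Other tested probes differed by -0.31 and 0.30 for Ppargc1b, by 0.36, 0.09 and -0.04 for Srebf2, and by -0.21 for Ppargc1a. Without SIRT1 LKO pool 3 the SREBP retention factor Insig1 passed at 1.001 (adjusted p = 0.0473), as did that Hnf4a probe at -0.56 (adjusted p = 0.0489).

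Sterol-response genes, the group to which Pmvk and Acss2 are related by their known control through SREBP, gave 29 tested probes of 30, for 14 genes. Of these 15 were higher and 14 lower with all arrays, and 21 higher and 8 lower without SIRT1 LKO pool 3. None passed in either fit. By brightest probe, Fdps, farnesyl diphosphate synthase, differed by 0.63 (limma adjusted p = 0.459) and Mvk, mevalonate kinase, by -0.17 (adjusted p = 0.531). Other probes of Lss, lanosterol synthase, at 0.45 (adjusted p = 0.261), and of Hmgcs1, HMG-CoA synthase, at 0.82 (adjusted p = 0.289), had smaller p. So did probes that were lower, of Sc5d at -0.47 (adjusted p = 0.328), Fdft1 at -0.41 (adjusted p = 0.337) and Idi1 at -0.28 (adjusted p = 0.436). The remaining tested probes of Lss differed by -0.09 and -0.01, and that of Hmgcs1 by -0.02 (adjusted p = 0.962).

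Markers of other cells of liver were read beside the members, since a pool is a mixture in which fewer cells of a type and less RNA per cell cannot be told apart. Kupffer cell markers had 8 genes tested, with 10 of 11 probes at a negative difference and a summed linear level of 56.5 to 70.9 in SIRT1 LKO livers, against 46.7 to 83.2 in Lox control livers. The value table puts SIRT1 LKO pool 3 at 112 on that sum, above every other pool, and with it 8 of the probes were higher and 3 lower. Without that pool 4 were higher and 7 lower. Stellate cell markers (6 genes tested) summed to 33.6 to 44.4 in SIRT1 LKO livers, against 44.2 to 49.8 in Lox control livers, and cholangiocyte markers (5 genes) to 7.10 to 9.90, against 7.41 to 8.46. The value table moves SIRT1 LKO pool 3 from 44.4 to 45.3 on the stellate cell sum and from 7.10 to 9.57 on the cholangiocyte sum. Within the cholangiocyte list the brighter Sox9 probe, for a duct cell transcription factor, read -2.69, -2.97 and -3.01 in SIRT1 LKO livers, against -1.92, -1.60 and -1.80 in Lox control livers. Both tested Sox9 probes were wholly below Lox control, the brighter at -1.12 (limma adjusted p = 0.0649) and the other at -1.20 (adjusted p = 0.0568), and neither passed. At the brighter probe the difference was -0.65 (adjusted p = 0.289) with the value table and passed at -1.06 (adjusted p = 0.0473) without SIRT1 LKO pool 3. In the fit without that pool 2 probes of the cholangiocyte list passed, both lower in SIRT1 LKO livers. The other 5 tested probes of the cholangiocyte list were higher with all arrays, and none passed. They differed by 0.70 for Epcam, 0.37 and 0.01 for Krt7, 0.19 for Spp1 and 0.07 for Krt19. Erythroid markers (3 of 6 genes tested) summed to 101 to 132 in SIRT1 LKO livers and 110 to 121 in Lox control livers. Of 8 adipocyte markers, Adipoq, Plin1, Lep and Retn were too dim to be tested, Plin1 and Lep on every array, and the other 4 summed to 36.6 to 39.5 in SIRT1 LKO livers, against 30.6 to 33.8 in Lox control livers, a gap that closes in the value table, where SIRT1 LKO pool 3 is at 33.0. Of their 7 tested probes 4 were wholly above Lox control, the 3 of Fabp4 (0.24 to 0.33) and 1 of Pnpla2 (0.29). The second Pnpla2 probe differed by -0.09 and Cidec by -0.00. Cfd, whose groups were also apart, read -3.40, -4.29 and -6.23 in SIRT1 LKO livers, against -2.22, 0.08 and -1.46 in Lox control livers (limma adjusted p = 0.113, with none of the other 6 probes past the threshold). Brain markers had 3 of 5 genes tested, with sums of 0.421 to 0.530 in SIRT1 LKO livers and 0.442 to 0.514 in Lox control livers. The value table moves SIRT1 LKO pool 3 from 0.421 to 0.687, above every other pool. Of the pancreas markers 2 of 5 genes were tested, with sums of 10.5 to 14.6 in SIRT1 LKO livers and 11.7 to 13.9 in Lox control livers. Here the value table moves SIRT1 LKO pool 3 from 14.6 to 10.1, below every other pool. The part of any of these in the values of Acsl1 probe 1, Acss1 or Acss2 was not tested.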

How the data were processed

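RNA from 3 SIRT1 LKO and 3 Lox control liver pools was labelled with Cy3 and read on 1-colour Agilent arrays. The scanner files hold spot intensity that the authors extracted with Agilent Feature Extraction (version 9.5 in the submitters' processing notes), background-subtracted per the file headers. Other per-spot flags (well above background, saturated, outlier) were deposited in the same files as 0 or 1 values. The deposited value table holds linear intensity made with the Rosetta Resolver error model, per the labels, and was used as an alternative.

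Control and outlier spots were left out, spots of a probe were averaged after log2, and the 75th percentile of the array was subtracted. Every probe was fitted on its own with limma 3.58.1 in R 4.3.3 (genotype only, lmFit and eBayes, two-sided, Benjamini-Hochberg over 23571 probes). Members keep the files' gene name; other names were updated through RefSeq accessions (22951 of 41174 probes) or synonyms (3109). Sequences are the scanner files' own. All 6 arrays entered the fit. The fit was tested on simulated data for this comparison (23538 probes, 200 changed, 5 simulations); at 1.5-fold it found 13.7% of the changed probes, at 2-fold 49.0%, and at 4-fold 86.1%.

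The members and all gene lists were chosen with earlier results of these data known. Named are every member probe and, of each other list, the 3 genes with the smallest p by brightest probe, and genes that passed in any fit given. Chosen after their values were seen were Fasn, Aacs, Acaca, Scd1, Ppara, Lss, Hmgcs1, Sc5d, Fdft1, Idi1, Mlxipl and the markers given by value. Some results that this rule would name are not reported here. Sqle is plotted on the same basis. Alternatives were normexp background correction (offset 50), quantile and median scaling, other filters, slide or replicate number as a block, trend and robust variance, the brightest probe per gene, the value table and each pool left out. Figures were drawn with matplotlib 3.10.9.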

Additional observations from a re-analysis of the deposited data

How the results depend on the processing

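No member probe passed the adjusted threshold under any alternative, and at an unadjusted p under 0.05 the count was 2. Over all probes the count of 15 became 5009 at unadjusted p, 0 with normexp, 0 with no filter, 49 with probes above background on all 6 arrays, 0 with the slide as a random block, 91 with trend and robust variance, 308 with the value table and 24 with the brightest probe per gene; leaving out 1 pool gave 0 to 699, the highest without SIRT1 LKO pool 3. Of 231 member values under alternatives 23 changed sign, none of them past the threshold. With normexp, Acsl1 probes 2 and 3 were -0.060 and -0.088, Acsl4 probe 1 was 0.059 and Acsl4 probe 2 was -0.10. With quantile scaling, Acsl1 probes 2 and 3 were -0.051 and -0.00030. With the value table, Acsl1 probes 2 and 3 were -0.18 and -0.039, Acsl3 was -0.038, Acsl4 probe 1 was 0.20 and Acsm1 was 0.019. Leaving out 1 pool moved Acsl1 probe 2 between -0.066 and 0.082, Acsl3 between -0.015 and 0.12, Acsl4 probe 1 between -0.12 and 0.18, Acsl6 probe 2 between -0.10 and 0.45 and Acsm3 between -0.18 and 0.059. The cause was not tested. Acsl1 probe 1, Acsl5, Acss1 and Acss2 kept their direction in every alternative run. Pools of the same number were not paired by the labels, and their deviations correlated at 0.01, -0.04 and -0.09; with the replicate number as a block 0 probes passed over all probes and 0 among the members. Acsl6 and Acss2 probe 1 lay near background, which limits what their values show.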
